A study of Mus musculus with 8 samples.

Results

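The transcripts of common lymphoid progenitors that lacked HEB were compared with those of wild-type (WT) progenitors on 4 of the 8 arrays of the series, 2 arrays per genotype. The arrays were chosen by the genotype given in their labels, HEB-KO or wild type, and not by any measured value. Both genotypes were C57bl/6 mice aged 10 to 13 weeks. The progenitors were sorted from bone marrow as lineage-negative cells that carried FLT3 and CD127, a chain of the interleukin 7 receptor, and lacked LY6D, a surface protein that appears as progenitors turn to the B lineage. Marrows of several mice were pooled for each sort, so the p-values below reflect how far arrays of pooled marrow vary, not how far mice do. The sources used here do not say how the HEB allele was made or whether WT mice were littermates. The other 4 arrays held E2A-KO progenitors of the same strain, age and sort, and they entered the model to help estimate the spread of each gene. Each SE and limma p below therefore draws on the scatter within all 3 genotypes, and not on the WT and HEB knockout arrays alone.

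HEB, encoded by Tcf12, is an E protein, a basic helix-loop-helix transcription factor that binds short E-box sites in DNA as a dimer with itself or with another E protein such as E2A (encoded by Tcf3) or E2-2 (encoded by Tcf4). Id proteins pair with E proteins and keep them off DNA. E proteins are known for switching on lymphoid genes in marrow progenitors and for guiding early B- and T-cell development.

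A gene was tested on its brightest probe set, the group of probes that reads it, if that signal passed a filter on dim signals. Levels are log2 of the deposited intensity throughout, and a difference is the mean of the HEB knockout arrays minus the mean of the WT arrays on that scale, so that 1 is a 2-fold difference. In each pair of values the array with replicate number 1 comes first. The median intensity of an array lay between 14.14 and 15.41 on the linear scale over the 8 arrays. Array controls did not follow genotype alone. The hybridization controls, spiked in at fixed amounts, read 11.40 and 10.29 in WT and 10.32 and 11.60 in HEB-KO cells, so that WT 2 resembled HEB_KO 1 and WT 1 resembled HEB_KO 2. Over all genes tested, WT 2 and HEB_KO 1 also correlated best of the 4 arrays (Pearson's r = 0.99 across genes, which are not independent replicates), against 0.97 for the WT arrays and 0.97 for the HEB knockout arrays. The gap between the 3′ and 5′ actin probe sets, which widens with RNA loss or short amplification products, was 4.45 and 3.84 in WT and 3.37 and 3.58 in HEB-KO cells, without overlap. The same gap for Gapdh was 6.03 and 5.0 in WT and 4.67 and 5.14 in HEB-KO cells, which overlapped. Transcripts of both sexes were present in each pool: Xist, made by the inactive X chromosome of females, read 11.18 and 9.63 in WT and 9.88 and 10.79 in HEB-KO cells, and the Y-linked Eif2s3y read 7.92 and 8.19 in WT and 7.91 and 6.38 in HEB-KO cells. The part of these differences in the results below was not tested. In bulk samples such as these, fewer cells of a type and less RNA per cell cannot be told apart.

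The markers used in the sort were checked first. Flt3 read 10.47 and 10.66 in WT and 11.05 and 10.50 in HEB-KO cells, and Il7r, which encodes CD127, read 10.51 and 10.91 in WT and 10.88 and 10.50 in HEB-KO cells. Dntt, which encodes the polymerase that adds bases at antigen receptor joints and is a hallmark of lymphoid progenitors, was the brightest at 13.51 and 13.52 in WT and 13.24 and 13.47 in HEB-KO cells. These 3 genes were high in both genotypes. Ly6d, whose protein the sorted cells should lack, read 3.53 and 7.83 in WT and 7.52 and 3.63 in HEB-KO cells. It was therefore high on 1 array of each genotype, WT 2 and HEB_KO 1, and near the floor on the other.

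Tcf12 was lower on both HEB knockout arrays than on both WT arrays. Its brightest probe set read 8.85 and 8.76 in WT and 7.10 and 6.49 in HEB-KO cells. The difference was -2.01 (4.03-fold lower, SE 0.26), and it missed the adjusted threshold (limma, adjusted p = 0.328), although it had the smallest p of all genes tested. Of the 5 probe sets that name Tcf12, 3 had both HEB knockout arrays below both WT arrays. The next brightest, 1439209_at, read 7.22 and 6.62 in WT and 5.93 and 5.52 in HEB-KO cells. The dimmer 1421908_a_at read 4.37 and 4.43 in WT and 3.68 and 3.32 in HEB-KO cells. The other two overlapped between genotypes, with differences of -0.49 for 1439619_at and 0.14 for 1446294_at. Tcf12 signal was thus lower, and still present, on the HEB knockout arrays, and the sources used here do not say whether these probe sets lie within the deleted part of the gene.

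**Figure D1:**
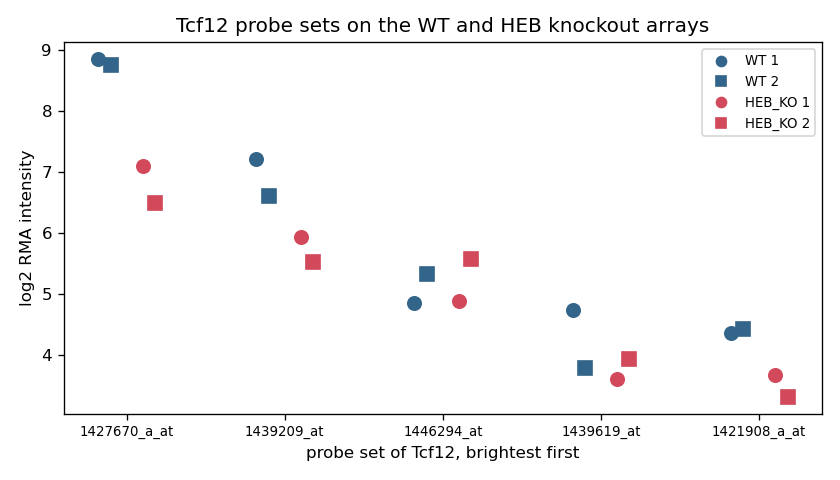
Log2 RMA intensity (y axis) of the 5 Tcf12 probe sets (x axis, brightest first) on the 2 WT and 2 HEB knockout arrays, 1 point per array. In 3 of the 5 probe sets both HEB knockout points lie below both WT points, and the brightest reads 7.10 and 6.49 against 8.85 and 8.76 in WT.

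The partners of HEB differed less than Tcf12, in both directions. Tcf3, which encodes E2A, read 7.76 and 7.98 in WT and 8.57 and 8.44 in HEB-KO cells, a difference of 0.63 (SE 0.26, limma, unadjusted p = 0.0373, adjusted p = 1). Its dimmer probe sets differed by 0.27 and 0.28. Tcf4 read 10.95 and 10.57 in WT and 10.26 and 10.40 in HEB-KO cells, a difference of -0.43 (SE 0.31). Tcf3 was the higher and Tcf4 the lower of these E proteins in HEB knockout cells, neither past the threshold over all genes. Cbfa2t3, a corepressor that E proteins recruit, read 8.53 and 8.63 in WT and 8.98 and 8.87 in HEB-KO cells (0.34, SE 0.25). Id2, an inhibitor of E proteins, read 6.31 and 6.75 in WT and 5.79 and 5.49 in HEB-KO cells (-0.89, SE 0.76). Id1 and Id3 were too dim to be tested, at 3.25 and 3.27 in WT and 3.22 and 3.32 in HEB-KO cells for Id1, and at 3.02 and 3.44 in WT and 3.11 and 2.93 in HEB-KO cells for Id3. Of the 13 E proteins, Id inhibitors and partners on the array, 10 were tested, 3 of which had both HEB knockout arrays below and 2 of which had both above the WT arrays, with a median difference of -0.04. Over all genes both arrays lay below for 11.4% and above for 23.4%.

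Over the whole transcriptome no single gene stood apart from the spread between arrays by the adjusted test. Of 11957 genes tested, 0 (0%) passed an adjusted p of 0.05 in limma, lower or higher, and 312 (2.61%) had an unadjusted p under 0.05, fewer than the 5% that this threshold passes on average when no gene differs. Of these 312 genes, 91 (0.761% of all tested) were lower and 221 (1.85%) were higher in HEB knockout cells. WT 1 decided much of this count: without it 58 genes had such a p, 37 lower and 21 higher, and without WT 2 there were 681, of which 146 were lower and 535 higher. Without HEB_KO 2 the count was 165, with 34 lower and 131 higher. Without HEB_KO 1 it was 336, with 180 lower and 156 higher. The median absolute difference between genotype means was 0.20, against 0.28 between the WT arrays, 0.27 between the HEB knockout arrays, 0.19 between WT 2 and HEB_KO 1 and 0.30 between WT 1 and HEB_KO 2. The median SE of a difference was 0.32, and the median half-width of its 95% confidence interval was 0.73. A single gene therefore usually had to differ by more than 1.5-fold before its own interval left 0, and with 2 arrays against 2 an exact two-sided permutation test could not go below p = 0.333.

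The differences leaned upwards. The median over all genes tested was 0.09 (quartiles -0.11 and 0.29), and 7393 genes (61.8%) had a higher mean in HEB knockout cells. Both HEB knockout arrays lay above both WT arrays for 2798 genes (23.4%) and below them for 1368 (11.4%). Over all 34945 probe sets that name a single gene, 0 (0%) passed limma's adjusted p, 7076 (20.2%) had both HEB knockout arrays above and 4768 (13.6%) had both below. With cyclic loess between arrays the median over all genes was 0.02, and the unadjusted calls split into 139 lower and 151 higher genes. The lean thus depended on the scaling between arrays, and the medians of gene groups below are read against 0.09. Under the settings used below this median was itself 0.06 for HEB_KO 1 against WT 2, 0.11 for HEB_KO 2 against WT 1, 0.02 without WT 1, 0.15 without WT 2, 0.05 without HEB_KO 1 and 0.12 without HEB_KO 2. Counts of group members are read against the shares over all genes: 38.2% with a lower and 61.8% with a higher mean, 11.4% with both HEB knockout arrays below and 23.4% with both above.

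A stricter description asked that both HEB knockout arrays lie at least 2-fold below or above both WT arrays. Of the 11957 genes, 6 (0.0502%) lay below by this rule and 9 (0.0753%) above. By means alone, 80 genes were at least 2-fold lower and 102 at least 2-fold higher. Over all single-gene probe sets 21 (0.0601%) lay below by the stricter rule and 10 (0.0286%) above. Beside Tcf12, the genes below were Ifit1, Gpr174, Slc15a2, Serpinb6b and Usp18. The genes above were Chil3, Ngp, Ltf, Camp, Lcn2, Ptpro, Ahsg, Thbd and Pdia5.

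**Figure D2:**
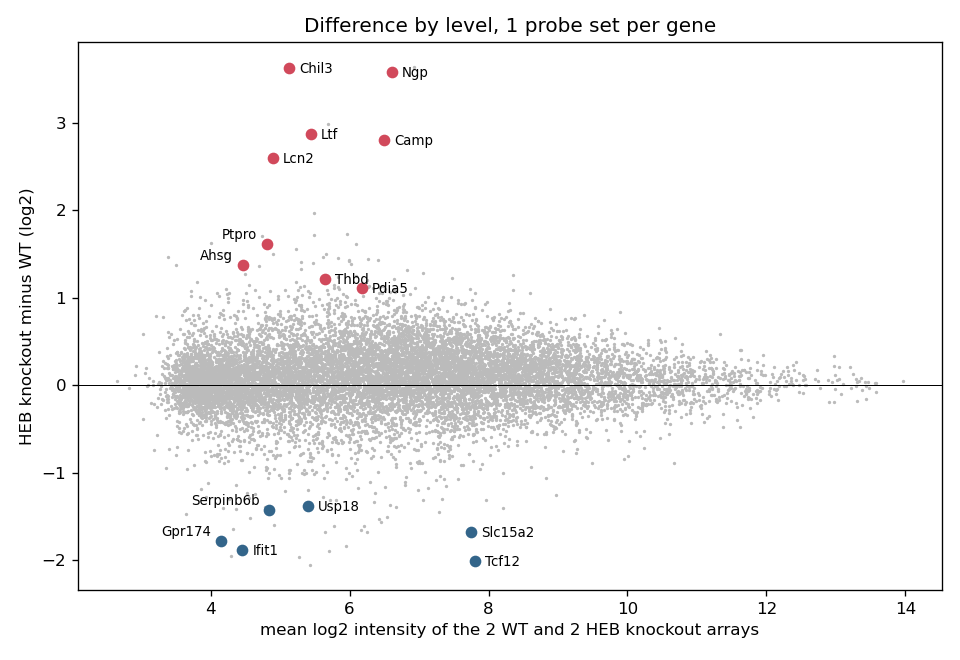
HEB knockout minus WT difference on the log2 scale (y axis) against the mean log2 intensity of the 4 arrays (x axis), 1 point per gene for 11957 genes. Blue points are the 6 genes whose HEB knockout arrays both lie at least 2-fold below both WT arrays, red points are the 9 genes at least 2-fold above, and the 5 highest red points, between 2.60 and 3.62, are neutrophil granule genes.

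Of the 6 genes that were lower by the stricter rule, Ifit1 and Usp18 respond to interferon. Ifit1, which binds viral RNA lacking a host cap, read 5.87 and 4.92 in WT and 3.68 and 3.35 in HEB-KO cells (-1.88, SE 0.49). Usp18, a protease that removes the ubiquitin-like protein ISG15 and damps interferon receptor signalling, read 5.92 and 6.26 in WT and 4.88 and 4.54 in HEB-KO cells (-1.38, SE 0.40). In both genes every HEB knockout value lay below every WT value, as the rule required. Neither passed the adjusted threshold (limma, adjusted p = 1 for each). Serpinb6b, a serine protease inhibitor, read 5.59 and 5.52 in WT and 4.44 and 3.82 in HEB-KO cells (-1.42, SE 0.30). Gpr174, a receptor for lysophosphatidylserine found on lymphocytes, read 4.84 and 5.23 in WT and 3.30 and 3.22 in HEB-KO cells (-1.77, SE 0.36). Slc15a2, a peptide transporter, was the brightest of them after Tcf12, at 8.27 and 8.92 in WT and 6.58 and 7.25 in HEB-KO cells (-1.68, SE 1.13). The other probe sets did not show the same size for these last genes, at 0.30 for Gpr174 and at -0.22 and 0.13 for Slc15a2.

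The interferon response was examined as a group because its genes are usually switched on together. The list was written with earlier results of these data known, and its counts include Ifit1 and Usp18, which the 2-fold rule had already picked. Of 33 tested members, 21 had a lower and 11 a higher mean in HEB knockout cells, against 38.2% lower over all genes. Both HEB knockout arrays lay below the WT arrays for 12 members (36.4%, against 11.4% of all genes) and above for 3 (9.09%, against 23.4%). An unadjusted p under 0.05 was reached by 5 members, all lower, against 0.761% of all genes. The median difference was -0.20, against 0.09 over all genes. Within the arrays of like hybridization control the median was -0.26 for HEB_KO 1 against WT 2 and -0.09 for HEB_KO 2 against WT 1. All genes gave 0.06 and 0.11 in these pairs. HEB_KO 1 carried the group's median: without that array it was 0.01, against 0.05 over all genes, while leaving out WT 1, WT 2 or HEB_KO 2 gave -0.17, -0.28 and -0.34. The mean level of the members was 6.64 and 6.56 in WT and 6.19 and 6.39 in HEB-KO cells. The mean was thus lower on both HEB knockout arrays. On HEB_KO 2 the typical member was lower than on WT 1 but not lower than the mean of the WT arrays. Single members such as Ifit1 and Usp18 lay well below WT there.

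Apart from Ifit1 and Usp18, the members with the smallest p were Rtp4, Herc6 and Samd9l. Rtp4, an interferon-inducible membrane protein chaperone, was the steadiest, at 8.08 and 8.10 in WT and 6.87 and 7.17 in HEB-KO cells (-1.07, SE 0.27). Herc6, the main ligase for ISG15 in mice, read 5.56 and 5.16 in WT and 4.69 and 3.90 in HEB-KO cells (-1.06, SE 0.44), while its dimmer probe sets differed by 0.03, -0.02 and -0.71. Samd9l, a restrictor of cell growth, read 7.81 and 6.91 in WT and 5.92 and 6.02 in HEB-KO cells (-1.39, SE 0.58). For these members too the groups did not overlap. Without any 1 of the 4 arrays their differences stayed at -0.67 (Herc6 without HEB_KO 2) or lower, and those of Rtp4 ran from -0.92 to -1.22. The remaining members with both HEB knockout arrays below were Gbp2, Ddx58, Irf7, Xaf1, Trim30a, Mx1 and Stat2, and those with both above were Lgals3bp, Gbp3 and Eif2ak2.

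The interferon-inducible GTPases, which attack the vacuoles of intracellular microbes, split. Of 9 tested members, 4 had both HEB knockout arrays below (11.4% of all genes did) and 2 had both above, near the 23.4% of all genes, and the median was 0.04. Gbp2 read 6.45 and 6.51 in WT and 5.84 and 4.98 in HEB-KO cells (-1.07, SE 0.49), and its second probe set differed by -1.26. Iigp1 read 7.57 and 6.79 in WT and 5.89 and 5.42 in HEB-KO cells (-1.53, SE 0.53), while its second probe set overlapped, with a difference of -0.50. Gbp8 went the other way, at 5.59 and 7.10 in WT and 7.48 and 7.29 in HEB-KO cells (1.05, SE 0.57). The 14 tested genes of MHC class I antigen processing, which interferon also induces, had 11 members with a higher and 3 with a lower mean, against 61.8% and 38.2% over all genes, and their median was 0.26.

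**Figure D3:**
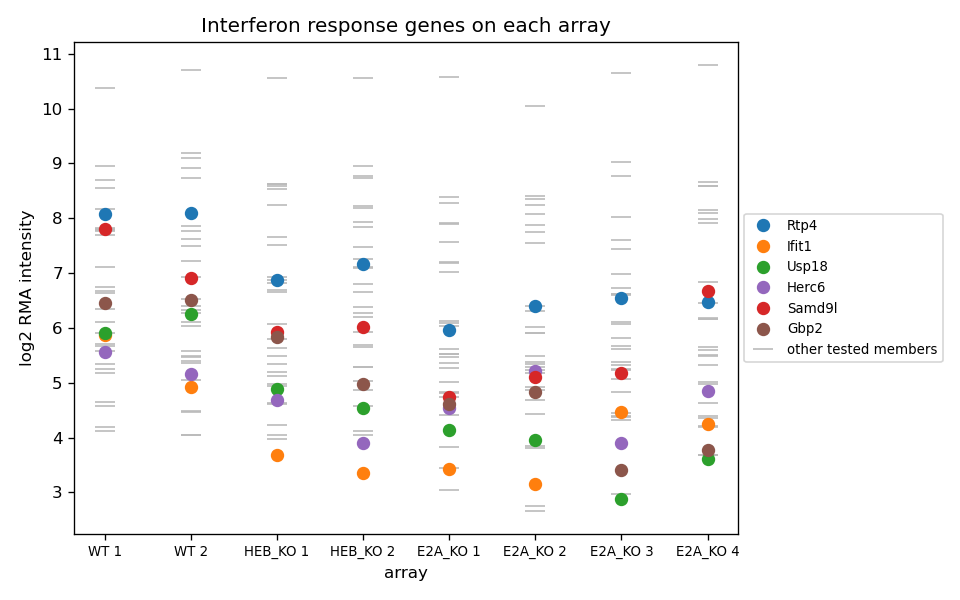
Log2 RMA intensity (y axis) of the 33 tested interferon response genes on each of the 8 arrays (x axis), 1 mark per gene, with 6 genes in colour and the others as grey dashes. The 6 coloured genes lie lower on both HEB knockout arrays than on both WT arrays, for example Rtp4 at 6.87 and 7.17 against 8.08 and 8.10.

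The stretch before the start site of interferon response genes often holds an interferon-stimulated response element, here searched as GAAANNGAAA on either strand (TTTCNNTTTC on the strand shown). The 250 bases before the start are printed for Ifit1 and Gbp2, as RefSeq gives them on assembly GRCm38.p6, with the element in capitals. Both are members that had both HEB knockout arrays below the WT arrays and that hold the element in this stretch. Ifit1 lies on the plus strand of chromosome 19 (chr19:34640639-34640888), with elements that begin 104 and 85 bases before the start. Gbp2 lies on the plus strand of chromosome 3 (chr3:142620413-142620662), with 1 element that begins 59 bases before the start.
Ifit1: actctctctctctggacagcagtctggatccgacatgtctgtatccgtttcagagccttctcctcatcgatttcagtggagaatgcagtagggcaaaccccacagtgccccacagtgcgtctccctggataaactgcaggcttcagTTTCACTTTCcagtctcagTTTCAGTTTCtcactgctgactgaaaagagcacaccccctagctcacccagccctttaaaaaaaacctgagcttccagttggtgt
Gbp2: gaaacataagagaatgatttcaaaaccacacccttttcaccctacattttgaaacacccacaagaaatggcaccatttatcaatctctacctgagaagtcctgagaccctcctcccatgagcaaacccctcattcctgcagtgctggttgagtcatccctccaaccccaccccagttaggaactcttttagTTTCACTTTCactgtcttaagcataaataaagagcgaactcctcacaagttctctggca
Matches were counted from 250 bases before to 50 after the start. Of the 11957 genes tested, 9695 had such a window in the RefSeq table, and 347 of these (3.58%) held the element. Among the interferon response genes 24 of 33 had a window, and 13 of these (54.2%) held it. The element did not sort members by their difference, since 5 of 9 members with both HEB knockout arrays below held it (55.6%), as did 8 of 15 other members (53.3%). Herc6 and Samd9l, also below on both arrays, had windows without the element, and Usp18 and Rtp4 had no window. A match is a description of the sequence and not a measured binding site.

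The E-box CAGCTG, which reads the same on both strands, was searched in the same windows because E proteins bind it. It was present in 1750 of the 9695 genes (18.1%). It was present in 14 of 73 genes (19.2%) that were lower at an unadjusted p under 0.05 and in 23 of 178 (12.9%) that were higher. These shares lie on either side of that of all genes, and windows of this length say nothing of more distant sites.

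Genes of lymphoid priming, which equip progenitors for lymphoid fates before they choose one, leaned down. Of 20 tested members, 15 had a lower and 5 a higher mean in HEB knockout cells, against 38.2% lower over all genes. Both HEB knockout arrays lay below for 6 (11.4% of all genes) and above for 0 (23.4% of all genes), and the median was -0.13, against 0.09 over all genes. The within-pair medians were -0.20 for HEB_KO 1 against WT 2 and -0.04 for HEB_KO 2 against WT 1, where all genes gave 0.06 and 0.11. Without WT 2 the median was 0.02, against 0.15 over all genes. Only Ccr9 among them had an unadjusted p under 0.05. Ccr9, the chemokine receptor that leads progenitors to the thymus, read 8.63 and 9.19 in WT and 7.98 and 7.05 in HEB-KO cells (-1.40, 2.64-fold lower, SE 0.48, limma, unadjusted p = 0.0181, adjusted p = 1). A further probe set of Ccr9, 1421920_a_at, read 6.00 and 6.39 in WT and 4.75 and 4.47 in HEB-KO cells, while its other 3 lay near the floor with differences of -0.03, -0.13 and -0.23. Ccr9 was thus lower on both HEB knockout arrays at both of its brighter probe sets. Ltb, which encodes lymphotoxin beta, read 6.01 and 6.60 in WT and 5.79 and 5.72 in HEB-KO cells (-0.55, SE 0.28). Notch1, the receptor that starts T-lineage commitment, read 11.63 and 11.92 in WT and 11.55 and 11.21 in HEB-KO cells (-0.40, SE 0.31), and its second probe set differed by -0.06. Bcl11a, a zinc finger factor that early lymphoid cells need, read 9.83 and 9.75 in WT and 9.44 and 9.46 in HEB-KO cells (-0.34, SE 0.27). All 7 probe sets of Bcl11a had both HEB knockout arrays below both WT arrays, and the other 6 differed by -0.57 to -1.86, more than the brightest did. Mef2c and Dntt were the other members with both HEB knockout arrays below. Some of these margins were thin, with the lower WT array cleared by only 0.031 for Mef2c, 0.041 for Dntt and 0.079 for Notch1. The dimmer probe sets of Dntt overlapped, with differences of -0.0061 and -0.052.

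Genes of the B lineage followed array pairs and not genotype. Ebf1, the factor that specifies the B lineage, read 4.36 and 6.90 in WT and 5.79 and 3.46 in HEB-KO cells. Rag1, part of the recombinase that rearranges antigen receptor genes, read 5.97 and 9.57 in WT and 8.49 and 5.81 in HEB-KO cells. Both genes were therefore high on WT 2 and HEB_KO 1 and low on WT 1 and HEB_KO 2, as Ly6d was. Their differences were -1.01 (SE 0.87) for Ebf1 and -0.62 (SE 1.12) for Rag1, and the sign turned without WT 2 or without HEB_KO 2. The mean level of the 19 tested members of the B-lineage list was 6.00 and 7.23 in WT and 6.86 and 6.06 in HEB-KO cells. Of these 19, 2 had both HEB knockout arrays below (10.5%, against 11.4% of all genes) and 1 had both above (5.26%, against 23.4%), with a median of -0.07. The sets of high and low arrays were those that the hybridization controls formed, and the part of that difference was not tested.

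Within the B-lineage list the members that did separate by genotype were Blnk, Bank1 and Cd22. Blnk, the adaptor that couples the pre-B-cell receptor to its kinases, read 9.36 and 9.52 in WT and 8.93 and 8.45 in HEB-KO cells (-0.75, SE 0.64). Bank1, an adaptor of B-cell receptor signalling, read 5.65 and 6.02 in WT and 5.27 and 4.46 in HEB-KO cells (-0.97, SE 0.52). Both were lower on the HEB knockout arrays, with the lower value on HEB_KO 2, while Cd22 was higher on both. Foxo1, a factor that works with E2A and EBF1 in B-lineage entry, overlapped at 7.93 and 8.49 in WT and 7.97 and 7.68 in HEB-KO cells (-0.39, SE 0.40). Pax5, which commits cells to the B lineage, was near the floor at 3.54 and 3.77 in WT and 3.66 and 3.91 in HEB-KO cells. Rag2, the partner of Rag1, read 6.65 and 7.41 in WT and 7.60 and 6.63 in HEB-KO cells (0.08, SE 0.44).

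The T-lineage and Notch lists showed few members apart by genotype, and the innate lymphoid list had members apart in both directions. Of 9 tested T-lineage genes, 0 had both HEB knockout arrays below (11.4% of all genes) and 2 had both above, which were Cd28 and Thy1 and made up 22.2%, near the 23.4% of all genes. Cd28, a costimulatory receptor, read 4.46 and 5.76 in WT and 6.45 and 6.67 in HEB-KO cells (1.45, SE 0.79). Its second probe set overlapped, at 3.41 and 4.79 in WT and 6.14 and 3.56 in HEB-KO cells. Thy1, a surface glycoprotein of thymocytes, read 4.47 and 4.60 in WT and 5.31 and 5.26 in HEB-KO cells (0.75, SE 0.47). Gata3, a factor of T-cell and innate lymphoid development, stayed near the floor at 3.51 and 3.70 in WT and 3.90 and 3.64 in HEB-KO cells. Among 12 tested natural killer and innate lymphoid genes, 3 had both arrays below (against 11.4% of all genes), Id2 among them, and 2 had both above (16.7%, against 23.4%), Tox among them at 3.27 and 4.16 in WT and 4.49 and 5.03 in HEB-KO cells. Of 12 tested Notch receptors and targets, 9 had a lower mean (38.2% of all genes did), 1 (Notch1) had both arrays below, and the median was -0.13.

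Of 2 lists of lymphocyte signalling, the Gimap family leaned down, and proximal T-cell receptor signalling did not. The Gimap family, small GTPases that keep lymphocytes alive, had 6 of 8 tested members with a lower mean, against 38.2% of all genes, 3 with both HEB knockout arrays below, against 11.4%, and 0 with both above, against 23.4%. Its median was -0.45, the lowest of the groups with at least 8 tested members, and it ran from -0.66 without WT 1 to -0.02 without WT 2, where all genes gave 0.02 and 0.15. Gimap8 read 8.24 and 9.18 in WT and 7.88 and 7.53 in HEB-KO cells (-1.0, SE 0.36), and Gimap9 read 7.63 and 7.65 in WT and 7.28 and 6.36 in HEB-KO cells (-0.82, SE 0.49). The lead of this family thus rested in part on WT 2, where its mean level was 7.0 against 6.35 on WT 1, 6.56 on HEB_KO 1 and 6.02 on HEB_KO 2. Among 14 tested genes of proximal T-cell receptor signalling, Prkcq, a kinase downstream of the receptor, read 6.12 and 5.96 in WT and 5.46 and 5.13 in HEB-KO cells (-0.75, SE 0.27). Plcg1, the phospholipase that makes calcium-releasing second messengers, read 8.58 and 8.48 in WT and 7.97 and 7.93 in HEB-KO cells (-0.58, SE 0.25). The dimmer probe sets of Plcg1 overlapped, with differences of -0.0075 and 0.17. At their brightest probe sets neither Prkcq nor Plcg1 overlapped between genotypes. They were the only members of that list below on both HEB knockout arrays (14.3%, against 11.4% of all genes). Another 2 members lay above on both arrays (14.3%, against 23.4%). Of the 14 members 8 had a higher and 6 a lower mean, and the median was 0.08. TNF and NF-kB targets had 12 of 16 members with a lower mean (38.2% of all genes), 5 with both arrays below (11.4% of all genes) and 0 with both above (23.4% of all genes), with a median of -0.18.

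Genes of stem and multipotent progenitors were mixed, with 3 of 17 tested members (17.6%) below on both arrays, 3 above and a median of -0.10, where 11.4% of all genes lay below and 23.4% above. Msi2, an RNA-binding protein that sustains progenitors, read 10.85 and 10.34 in WT and 9.77 and 9.99 in HEB-KO cells (-0.71, SE 0.30). Hoxa9, a homeobox factor of early progenitors, read 10.73 and 10.22 in WT and 9.82 and 9.97 in HEB-KO cells (-0.58, SE 0.37). Kit, the stem cell factor receptor, read 6.61 and 6.66 in WT and 6.50 and 5.77 in HEB-KO cells (-0.50, SE 0.47), and its second probe set differed by 0.10. These 3 were the members below on both arrays. Bcl2, which protects lymphocytes from apoptosis, depended on the probe set. Its brightest read 10.14 and 8.56 in WT and 8.26 and 8.33 in HEB-KO cells (-1.06), whereas 1437122_at read 7.17 and 7.18 in WT and 8.08 and 7.92 in HEB-KO cells (0.82).

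The largest differences in the data were of neutrophil granule genes, which were higher on both HEB knockout arrays. Chil3, a chitinase-like protein, read 2.62 and 4.01 in WT and 5.71 and 8.17 in HEB-KO cells, a difference of 3.62 (12.3-fold higher, SE 1.37, limma, unadjusted p = 0.0274, adjusted p = 1). Ngp, the neutrophilic granule protein, read 3.80 and 5.84 in WT and 7.55 and 9.25 in HEB-KO cells (3.58, SE 1.54). Every HEB knockout value lay above every WT value, as the 2-fold rule required of both, and HEB_KO 2 was the highest array for each. Ltf, which encodes lactoferrin, read 3.82 and 4.19 in WT and 5.71 and 8.05 in HEB-KO cells (2.87, SE 0.85). Camp, the cathelicidin antimicrobial peptide, read 4.46 and 5.73 in WT and 7.01 and 8.79 in HEB-KO cells (2.80, SE 1.06). Lcn2, the iron-siderophore binder lipocalin 2, read 3.23 and 3.96 in WT and 5.23 and 7.16 in HEB-KO cells (2.60, SE 0.59). Ngp, Ltf, Camp and Lcn2 belong to granules that neutrophils fill late in their maturation. Without HEB_KO 2 the differences were 2.40 for Chil3, 2.73 for Ngp, 1.70 for Ltf, 1.91 for Camp and 1.63 for Lcn2, so HEB_KO 2 set much of their size.

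Over the whole neutrophil granule list, 17 of 18 tested members had a higher mean in HEB knockout cells, against 61.8% of all genes. Both HEB knockout arrays lay above for 10 (55.6%, against 23.4% of all genes) and below for 1 (5.56%, against 11.4%). Of the 18, 6 had an unadjusted p under 0.05, all higher, against 1.85% of all genes. The median was 0.59, against 0.09 over all genes, with 0.64 for HEB_KO 1 against WT 2 and 1.08 for HEB_KO 2 against WT 1, and it ran from 0.51 to 1.01 when any 1 of the 4 arrays was left out. The mean level of the list was 4.99 and 5.58 in WT and 6.21 and 7.30 in HEB-KO cells. S100a8, a subunit of calprotectin, read 3.35 and 6.87 in WT and 7.66 and 9.84 in HEB-KO cells, and its partner S100a9 read 2.91 and 5.49 in WT and 6.29 and 8.09 in HEB-KO cells. In both genes the WT arrays lay nearly as far from each other as the genotype means did. The primary granule genes made in immature neutrophils and their precursors did not share the size of these differences. Mpo, the myeloperoxidase, was bright throughout, at 10.84 and 11.23 in WT and 11.66 and 11.59 in HEB-KO cells (0.59, SE 0.36). Elane, the neutrophil elastase, was the member below on both arrays, at 4.47 and 4.46 in WT and 3.91 and 4.38 in HEB-KO cells (-0.32, SE 0.27). Mmp8, Cd177 and Orm1 of this list were too dim to be tested. Late granule genes and Chil3 were also high on 1 of the 4 E2A knockout arrays, E2A_KO 3, where Ngp read 8.65, Camp 7.53, Chil3 6.61 and Ltf 5.60. Arrays of a genotype thus differed in this signal by as much as the genotypes did, and whether it comes from other cells in the sort was not tested.

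**Figure D4:**
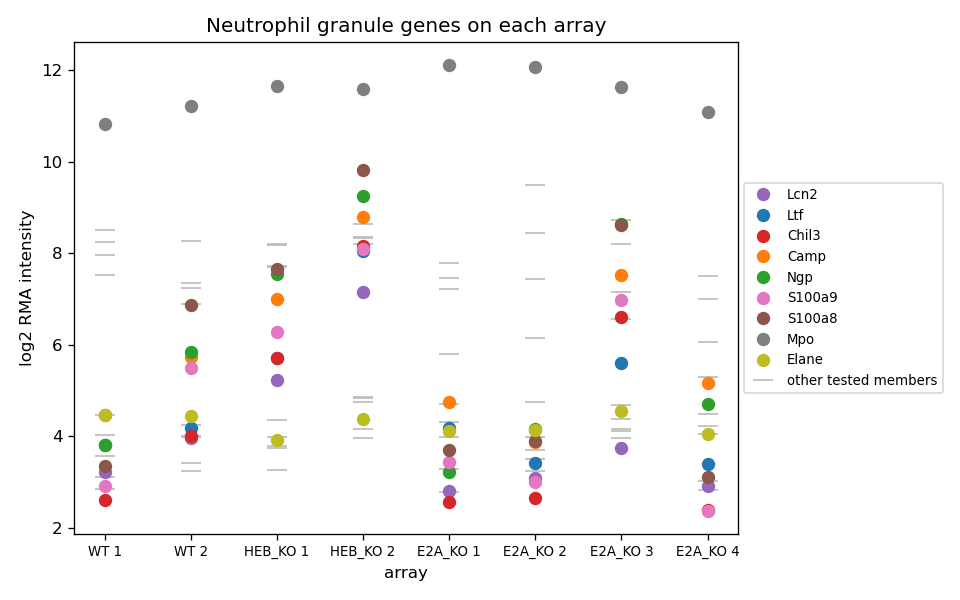
Log2 RMA intensity (y axis) of the 18 tested neutrophil granule genes on each of the 8 arrays (x axis), 1 mark per gene, with 9 genes in colour and the others as grey dashes. Late granule genes such as Ngp are highest on HEB_KO 2 (9.25), with HEB_KO 1 (7.55) and E2A_KO 3 (8.65) next, while Mpo stays between 10.84 and 12.13 on every array.

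Markers of other cell types had medians closer to that of all genes over the 4 arrays. Of the 14 tested monocyte and macrophage markers 8 had a lower and 6 a higher mean, with a median of -0.05, and both HEB knockout arrays lay above for 4 (28.6%, against 23.4% of all genes) and below for 1, and their mean level was 7.0 and 6.77 in WT and 7.0 and 6.89 in HEB-KO cells. Members that were higher on both arrays included Ly86, a partner of the receptor RP105 on myeloid and B cells, which read 9.39 and 9.55 in WT and 10.55 and 10.06 in HEB-KO cells (0.83, SE 0.38), and the macrophage lysozyme Lyz2, which read 7.53 and 7.36 in WT and 7.70 and 8.34 in HEB-KO cells (0.58, SE 0.41). The medians were 0.03 over 14 dendritic cell markers, -0.11 over 11 erythroid, 0.18 over 8 megakaryocyte and mast cell, -0.02 over 7 mature B and plasma cell, and 0.05 over 5 stromal and endothelial markers. Of the dendritic cell markers, 5 had both HEB knockout arrays below (35.7%, against 11.4% of all genes) and 0 had both above (against 23.4%). Small lists moved with single arrays: the mature B and plasma cell median was -0.60 without WT 1 and 0.50 without WT 2, and the megakaryocyte and mast cell median ran from -0.09 without HEB_KO 2 to 0.46 without HEB_KO 1.

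The other genes that were higher by the 2-fold rule had unlike roles. Ptpro, a receptor-type tyrosine phosphatase, read 3.65 and 4.37 in WT and 5.47 and 5.77 in HEB-KO cells (1.62, SE 0.48), while its dim second probe set differed by -0.12. Ahsg, the plasma protein fetuin A, read 3.99 and 3.56 in WT and 5.04 and 5.25 in HEB-KO cells (1.37, SE 0.44). Thbd, the thrombin receptor thrombomodulin, read 5.11 and 4.98 in WT and 6.12 and 6.40 in HEB-KO cells (1.21, SE 0.47). Pdia5, a protein disulphide isomerase, had the tightest replicates, at 5.59 and 5.66 in WT and 6.75 and 6.73 in HEB-KO cells (1.12, SE 0.43). The SE of Pdia5 also draws on the scatter of the E2A knockout arrays, so it does not describe these replicates alone. Klf2, a factor of lymphocyte quiescence and trafficking, did not meet the rule but read 5.42 and 5.14 in WT and 7.27 and 6.14 in HEB-KO cells (1.42, SE 0.49). For the genes named by the rule, the lack of overlap follows from the rule itself, and the groups of Klf2 did not overlap either.

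Genes of growth and division were slightly higher as groups. Of 32 tested genes of DNA replication, 29 had a higher mean in HEB knockout cells, 15 had both HEB knockout arrays above and 0 had both below, with a median of 0.27. Of 31 mitotic genes, 25 had a higher mean, 14 had both arrays above and 1 had both below, with a median of 0.20. Over all genes 61.8% had a higher mean and 23.4% had both arrays above. Within array pairs the medians were 0.25 and 0.15 for replication and 0.22 and 0.22 for mitosis, with HEB_KO 1 against WT 2 given first, where all genes gave 0.06 and 0.11, so replication in the second pair was close to all genes. With cyclic loess they were 0.16 and 0.09, against 0.02 over all genes. E2f1, which drives entry into S phase, read 4.71 and 5.68 in WT and 6.01 and 6.13 in HEB-KO cells (0.87, SE 0.35), while its other probe sets did not share this, at -0.0058 for 1417878_at and -0.21 for a dim one. Mcm3, a subunit of the replicative helicase, read 8.80 and 9.67 in WT and 10.02 and 9.80 in HEB-KO cells (0.68, SE 0.35). Its other probe sets differed by 1.08 and 0.72 without overlap, and by 0.06 and 0.02 with overlap. Among the mitotic genes the kinesin Kif20a read 5.32 and 5.45 in WT and 6.47 and 6.23 in HEB-KO cells (0.96, SE 0.70), and the kinetochore protein Nuf2 read 5.91 and 5.90 in WT and 6.49 and 6.81 in HEB-KO cells (0.74, SE 0.52). At their brightest probe sets single members differed by less than 2-fold, and only E2f1 of the replication genes had an unadjusted p under 0.05.

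Protein synthesis and turnover leaned the same way in mitochondria and proteasomes. Of 76 tested mitochondrial ribosomal proteins, 64 had a higher mean (61.8% of all genes), 42 had both HEB knockout arrays above (55.3%, against 23.4% of all genes) and 2 had both below, with a median of 0.24. Of 38 tested proteasome subunits, 36 had a higher mean, 18 had both arrays above (47.4%, against 23.4% of all genes) and 0 had both below, with a median of 0.29. These medians were alike in the 2 array pairs, at 0.25 and 0.25 for the mitochondrial ribosome and 0.31 and 0.31 for the proteasome, and with cyclic loess they were 0.14 and 0.18. Without HEB_KO 1 they were 0.16 and 0.14. Mrpl54 read 5.78 and 5.72 in WT and 6.70 and 6.35 in HEB-KO cells (0.78, SE 0.26), and Mrpl19 read 6.85 and 6.99 in WT and 7.97 and 7.44 in HEB-KO cells (0.79, SE 0.33). The proteasome subunit Psmd7 read 5.12 and 5.46 in WT and 6.12 and 6.10 in HEB-KO cells (0.82, SE 0.35), with -0.53 at its second probe set, and Psma1 read 8.87 and 9.10 in WT and 9.78 and 9.49 in HEB-KO cells (0.65, SE 0.27). The 3 dimmer probe sets of Psma1 were not higher, at -0.09, -0.16 and -0.43. By contrast the 47 tested cytosolic ribosomal proteins had a median of 0.06, below that of all genes, with 13 above on both arrays (27.7%, against 23.4% of all genes) and 2 below.

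Endoplasmic reticulum folding and glycolysis had medians of like size, while their shares of members above on both arrays stood closer to all genes. Of 19 tested genes of the unfolded protein response, 13 had a higher mean, near the 61.8% of all genes, 7 had both HEB knockout arrays above (36.8%, against 23.4%) and 0 had both below, with a median of 0.23 that ran from -0.04 without WT 1 to 0.49 without WT 2. Pdia4 read 4.73 and 5.02 in WT and 5.53 and 5.94 in HEB-KO cells (0.86, SE 0.28). Pdia6 read 8.12 and 8.94 in WT and 9.49 and 9.0 in HEB-KO cells (0.72, SE 0.31). Both encode disulphide isomerases, and Pdia6 cleared the higher WT array by only 0.066, while the isomerase Pdia3 overlapped at 6.68 and 7.12 in WT and 7.64 and 6.72 in HEB-KO cells (0.28, SE 0.42). Of 17 glycolysis genes, 13 had a higher mean and 6 had both arrays above (35.3%, against 23.4% of all genes), with a median of 0.25. Pfkl, the liver type of phosphofructokinase, read 7.39 and 8.75 in WT and 9.37 and 8.90 in HEB-KO cells (1.06, SE 0.43), and without WT 1 its difference was 0.38. Itga4, the alpha 4 integrin that holds progenitors in the marrow, read 9.44 and 9.62 in WT and 10.31 and 10.03 in HEB-KO cells (0.64, SE 0.26). Its 1456498_at differed by 0.68, but 1450155_at went the other way, at 5.95 and 4.69 in WT and 4.60 and 3.56 in HEB-KO cells (-1.24). Itga4 stood among 18 homing and adhesion receptors with a median of 0.11.

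**Figure D5:**
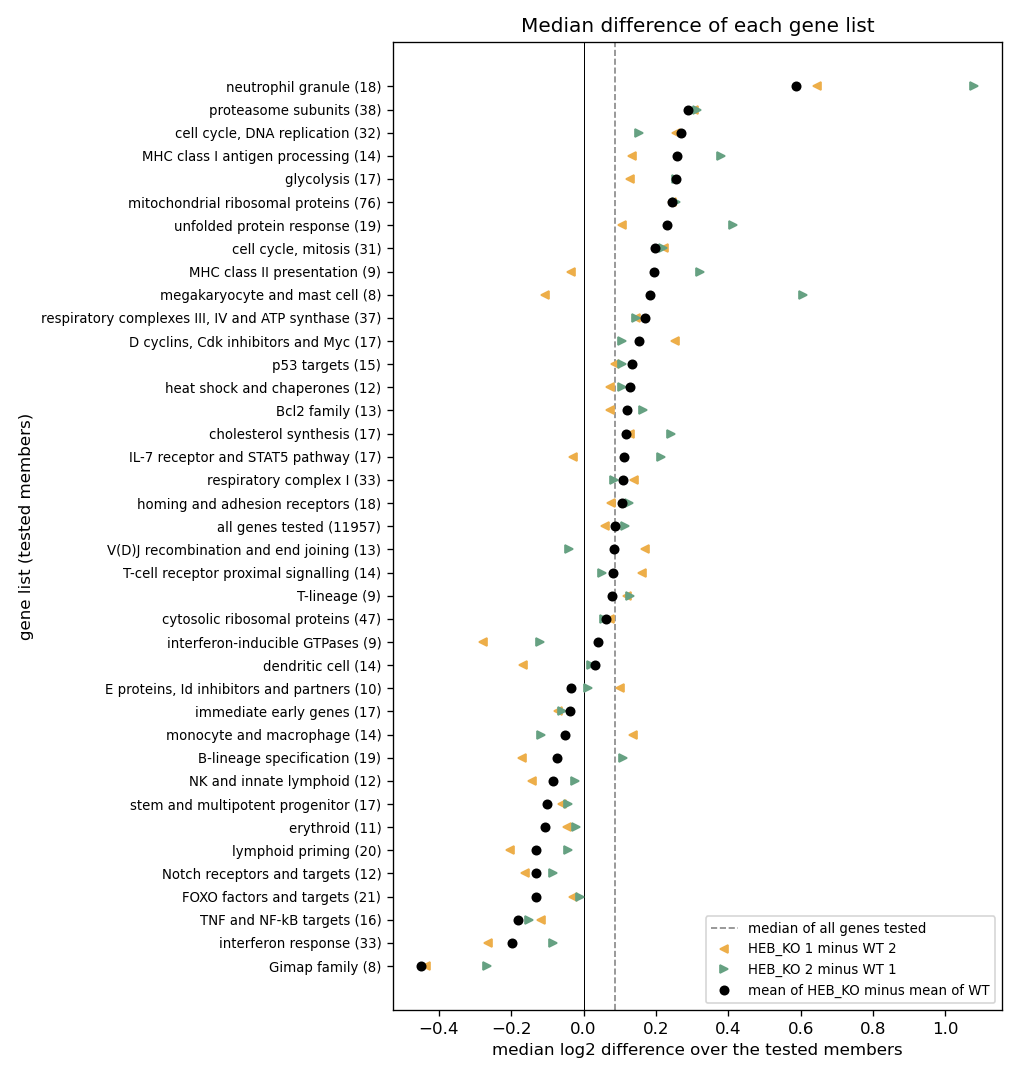
Median log2 difference over the tested members of each gene list with at least 8 tested members (y axis, number of tested members in brackets), for genotype means (black circles), HEB_KO 1 minus WT 2 and HEB_KO 2 minus WT 1 (triangles). The dashed line is the median of all 11957 genes, 0.09, and the neutrophil granule genes lie at 0.59 and the Gimap family at -0.45.

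Second probe sets gave a measure of how far single differences hold within the same RNA. Of 5287 genes whose second-brightest probe set also passed the filter on dim signals, 3084 (58.3%) had the same sign in both. Among genes at an unadjusted p under 0.05 it was 74 of 112 (66.1%), and among genes at least 2-fold apart by means it was 50 of 72 (69.4%), of which 18 kept at least 50% of the size. Many single differences above were thus not shared by another probe set of the gene.

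Probe sets that name no single gene leaned the other way, which was looked at after the gene results were known. Of 4214 such probe sets that passed the filter on dim signals, 0 passed limma's adjusted p and 249 had an unadjusted p under 0.05, 227 of them lower in HEB knockout cells. Both HEB knockout arrays lay at least 2-fold below both WT arrays for 31 (0.736%) and at least 2-fold above for 1 (0.0237%). Their median difference was -0.13 and 63.7% were lower, against 0.09 and 38.2% for the genes tested. In 4 classes of level set by the quartiles of the genes tested, from dim to bright, the medians were -0.13, -0.30, -0.12 and 0.03, against 0.03, 0.10, 0.14 and 0.09 for the genes. The lean of a probe set thus went with its class also at like levels, except among the brightest. The brightest, second and further probe sets of named genes had medians of 0.09, 0.06 and 0.02. The actin 3′ to 5′ gap given above also differed between the genotypes without overlap, and its part in this pattern was not tested.

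The HEB knockout was also set against the E2A knockout with the same model, for the genes named here, since the 2 comparisons with WT share the WT arrays. In this contrast 12 genes (0.1%) were lower and 2 (0.0167%) were higher in E2A knockout cells at an adjusted p under 0.05 among 11957 tested. The named genes that passed were Tcf12, Tcf3, Ccr9 and Gbp8, and each differed beyond the spread between arrays. Ccr9 read between 2.74 and 4.06 on the 4 E2A knockout arrays, below both HEB knockout values of 7.98 and 7.05. Gbp8 read between 2.62 and 4.13 on the E2A knockout arrays, below both HEB knockout values of 7.48 and 7.29. Other genes that were low on the HEB knockout arrays did not pass this contrast, such as Usp18 (E2A minus HEB knockout -1.07, SE 0.35, limma, adjusted p = 0.207) and Rtp4 (-0.68, SE 0.23, adjusted p = 0.221). Ifit1 differed between the knockouts by 0.31 (SE 0.42), and read between 3.15 and 4.47 on the E2A knockout arrays. A p that misses the threshold does not show that the knockouts act alike on these genes.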

How the data were processed

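RNA of 8 arrays was labelled after more than 1 round of amplification, per the labels' protocols. The deposited values are intensity values per probe set made with RMA, per the submitters' processing notes. RMA puts arrays on 1 scale, which hides a shift shared by most genes. The RMA version and the chip definition were not stated. The values were taken to log2 without further normalization. The chip held 45101 probe sets: 34945 with a single gene in the annotation used, 932 with several, 9160 with none and 64 controls. Each of 18193 genes was represented by its brightest single-gene probe set. A gene needed a signal above the array median on 2 or more arrays, by which 11957 genes were tested and 6236 were not. Symbols and promoters came from RefSeq tables of GRCm38.p6.

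With limma 3.58.1 in R 4.3.3, 1 mean for each genotype was estimated from the 8 arrays (5 residual degrees of freedom), two-sided, with Benjamini-Hochberg adjustment over all genes, and tested on simulated data. The number of arrays limits precision. The genotypes, genes and lists were chosen with earlier results of these data known. Named were a fixed set of lymphoid genes, genes passing the 2-fold rule on all 4 arrays, and up to 4 members per list with the smallest p; Tcf4, Cd22 and other list members were named after their values were seen. Nothing was left out except probe sets as stated. Alternatives were other filters, scalings, probe set rules, variance models, blocks and arrays left out.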

Additional observations from a re-analysis of the deposited data

Results flagged for a closer look

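Named genes whose effect differed between the 2 knockouts by the test of the difference itself are given here as E2A minus HEB knockout on the log2 scale, with limma's adjusted p over 11957 genes. Tcf12 differed by 1.77 (SE 0.22, adjusted p = 0.0372) and Tcf3 by -4.52 (SE 0.22, adjusted p = 1.15e-04), each lowest in the knockout of its own gene. Ccr9, the thymus-homing receptor, differed by -3.88 (SE 0.42, adjusted p = 0.0372) and Gbp8, an interferon-inducible GTPase, by -4.19 (SE 0.49, adjusted p = 0.0372), both lower on all 4 E2A knockout arrays than on both HEB knockout arrays.

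Outside the genes tested, 31 of 4214 probe sets that name no single gene had both HEB knockout arrays at least 2-fold below both WT arrays, against 6 of 11957 genes.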

How the results depend on the processing

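No gene passed the adjusted threshold under any of the alternatives run. The count at an unadjusted p under 0.05 was 312, and it was 485 with no filter, 197 with a filter at the 75th percentile, 998 over all probe sets, 655 with array weights and 538 on the WT and HEB knockout arrays alone. It ran from 58 to 681 when 1 array was left out. With cyclic loess it was 290 (139 lower, 151 higher), and with median centring 344 (75 lower, 269 higher). Same-numbered arrays deviated in opposite directions (r = -0.28), but this is a single correlation and cannot show whether the numbers pair the arrays. A replicate block gave 406 genes at an unadjusted p under 0.05 in limma (149 lower, 257 higher) and a crossed replicate block 334. The count of genes at least 2-fold below on all arrays, 6, was 2 with the 75th percentile filter, 21 over all probe sets, 353 without WT 2 and HEB_KO 1, and 16 to 139 when 1 array was left out. Its counterpart above, 9, was 5 with that filter, 558 without both arrays and 16 to 331 when 1 was left out, and fewer arrays loosen this rule by construction. Gaps of 1.5-fold and 3-fold gave 40 and 1 below, 75 and 2 above.

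Tcf12 kept its direction in each alternative, from -0.89 as the mean of its probe sets to -2.36 without WT 2 and HEB_KO 1. Signs turned for a few genes, and the cause was not tested. With 1 array left out, Ebf1 ran from -2.28 to 0.27, Rag1 from -2.41 to 1.18, Ly6d from -2.26 to 2.05, Il7r from -0.22 to 0.18, Rag2 from -0.40 to 0.57 and Flt3 from -0.064 to 0.48. Ly6d was 0.19 with the hybridization control as covariate and 0.10 without WT 2 and HEB_KO 1, and Rag2 was -0.020 without these and -0.024 with cyclic loess. Il7r was 0.022 with median centring. As means of their probe sets Psma1 was -0.0061 and Slbp -0.086. Where 1 array was left of a genotype, it was assumed to vary like the others.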

Other observations

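Further lists were summarised in the same way. Against a median log2 difference of 0.09 over all genes, the medians were -0.13 over 21 FOXO factors and targets, 0.11 over 17 genes of the interleukin 7 receptor and STAT5 pathway, 0.13 over 15 p53 targets, 0.12 over 17 genes of cholesterol synthesis, 0.13 over 12 heat shock genes and chaperones, -0.04 over 17 immediate early genes and 0.11 over 33 subunits of respiratory complex I. Respiratory complexes III and IV and the ATP synthase had 31 of 37 tested subunits with a higher mean (61.8% of all genes), 13 with both HEB knockout arrays above (35.1%, against 23.4% of all genes) and 0 with both below, and a median of 0.17. Uqcr11, a small subunit of complex III, read 9.39 and 9.43 in WT and 10.06 and 9.79 in HEB-KO cells (0.51, SE 0.24). Among 13 tested genes of V(D)J recombination and end joining, with a median of 0.08, Poll, a polymerase that fills gaps at joined ends, read 6.11 and 6.54 in WT and 7.03 and 7.05 in HEB-KO cells (0.72, SE 0.30).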
